A study of Mus musculus with 7 samples.

Results

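miR-22 was measured in extracellular vesicles, small membrane-bound particles shed by cells, from the epididymal fat of mice. Both arms of its hairpin, mmu-miR-22-3p and mmu-miR-22-5p (mmu for mouse, left out below), were taken by exact name from the deposited table, which makes 2 of its 820 miRNAs. All animals were male ApoE-/- mice, which lack apolipoprotein E and so develop atherosclerosis. The labels give their age as 8 weeks, which cannot be the age after the 12 weeks of treatment. The HFD group (4 libraries) received a high-fat diet, and the HFD+Ni group (3 libraries) received the same diet with nicotine at 2 mg/kg/day, for 12 weeks in both. The controls therefore also carried the ApoE deletion and ate the high-fat diet, and no lean or chow-fed group was analysed here. The labels do not say whether a library came from 1 animal or from a pool, so the tests measure the spread between libraries, part of which may be technical.

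miR-22 is a conserved miRNA made from a single hairpin and found in most tissues, with high levels in heart and muscle. A miRNA guides Argonaute proteins to mRNAs that match its seed, the bases near its 5′ end, and lowers their translation and stability. Reported targets of miR-22-3p include the deacetylases Sirt1 and Hdac4. In human fat-derived stromal cells miR-22 has been reported to oppose fat cell formation through HDAC6. The strand that is kept in Argonaute is the guide, here usually the 3p arm, while the other arm is mostly degraded.

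The sequences of both arms are shown because the arms differ in seed and so in the mRNAs they can match, with bases 2 to 8, the seed, in capitals:
miR-22-3p: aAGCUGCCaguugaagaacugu
miR-22-5p: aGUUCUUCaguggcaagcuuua
The hairpin is shown to place the arms, which are in capitals, the 5p arm first:
Mir22: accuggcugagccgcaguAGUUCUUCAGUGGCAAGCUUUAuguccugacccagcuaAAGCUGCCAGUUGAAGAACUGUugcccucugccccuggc
These sequences are from RefSeq on GRCm38.p6, and both arms were matched by name. Both arms are 22 bases long, with a GC content of 45.5% for miR-22-3p and 40.9% for miR-22-5p.

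The 95-base hairpin lies at chr11:75463716-75463810 on the + strand, with miR-22-5p at chr11:75463734-75463755 and miR-22-3p at chr11:75463772-75463793. In GENCODE release M21 on GRCm38 it sits within exon 2 of both transcripts of its host gene Mir22hg, a processed transcript that codes for no protein (chromosome 11, 75461539 to 75466676). In the minimum free energy fold of the hairpin, 19 bases of the 3p arm pair with the 5p arm, and all 7 seed bases of miR-22-3p are among them. In the hairpin 16 bases lie between the arms.

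None of the 1678 other mature mouse miRNAs in the RefSeq table had the 7-base seed of either arm. The closest to miR-22-3p was miR-3966, at an edit distance of 3 bases, whose seed is shifted by one base:
miR-3966: aGCUGCCAgcuguagaacugu
miR-3966 is encoded on chromosome 10 and had no row among the deposited miRNAs. For miR-22-5p the closest sequences were at an edit distance of 8. No other miRNA of the table had reads within 5% or 2 reads of those of miR-22-3p in every library, and none had the same reads as miR-22-5p throughout, so neither arm had reads that mirrored those of another miRNA.

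The miRNA reads of a library, summed over all rows, came to between 53626 and 1055902. Some rows hold nearly the same reads, such as miR-103-3p and miR-107-3p, so a read can enter this sum more than once. Levels are given as rpm, reads per 1000000 of this sum, and whole reads were recovered from them. HFD replicate 2 was the deepest library, where 1 read is 0.947 rpm, and HFD+Ni replicate 1 the shallowest, where 1 read is 18.6 rpm. HFD replicate 2 therefore gave 83.1% of all 2496 reads of miR-22-3p, although each library counts equally in the group means below. Intervals are exact 95% intervals. They reflect the number of reads alone, because several reads may be PCR copies of one molecule.

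mmu-miR-22-3p was a moderately abundant miRNA of these vesicles, at 852 rpm on average over the 7 libraries, which placed it at rank 69. It was read in every library. In HFD it stood at 1114, 1964, 715 and 351 rpm in replicates 1 to 4, from 90, 2074, 84 and 27 reads. In HFD+Ni it stood at 559, 807 and 455 rpm in replicates 1 to 3, with 30 reads in replicate 1 and 49 in replicate 3. The highest values were those of HFD replicates 2 and 1 and the lowest that of HFD replicate 4, so the HFD+Ni values lay inside the HFD range and the groups overlapped. Within a library its rank ran from 51 in HFD replicate 2 to 94 in HFD replicate 4.

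The mean level of miR-22-3p was 1036 ± 693 rpm (SD, n = 4) on the diet alone. With nicotine it was 607 ± 181 rpm (SD, n = 3), which is 1.71-fold lower. This difference was smaller than the spread between the HFD libraries. In the limma fit across all 387 tested miRNAs, on log2(rpm + 1), the log2 fold change was -0.54 (SE 0.54, 95% interval -1.73 to 0.64), and it did not pass the threshold of 0.05 (limma adjusted p = 0.830, unadjusted p = 0.338). The interval reaches far to both sides of 0, so the data do not show that the groups were alike. edgeR on the recovered reads gave -0.92 (adjusted p = 0.700) and DESeq2 gave -0.74 (adjusted p = 0.940). In the authors' deposited table the log2 fold change of miR-22-3p is -0.82, with an FDR of 1, and neither arm is among the 15 miRNAs of the authors' list of changed miRNAs.

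**Figure D1:**
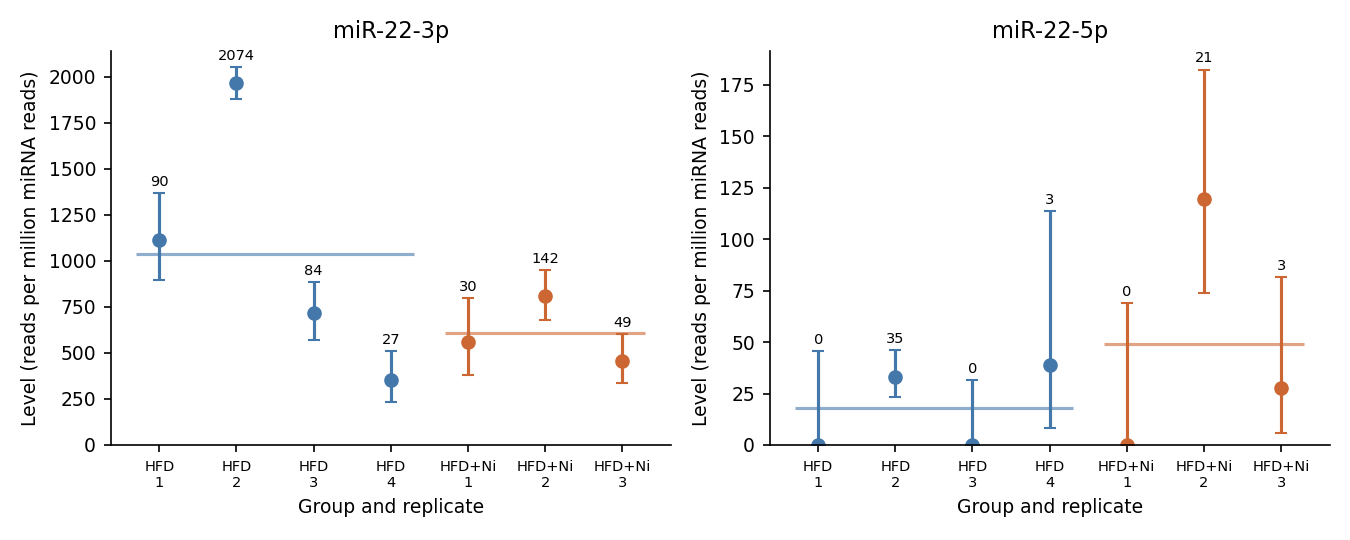
Level of miR-22-3p (left) and miR-22-5p (right) in each of the 7 libraries, in rpm, by group and replicate. Points are libraries, bars are exact 95% Poisson intervals, numbers are reads and horizontal lines are group means; miR-22-3p is highest at 1964 rpm in HFD replicate 2, and miR-22-5p at 119 rpm in HFD+Ni replicate 2.

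The background of the comparison was low. limma called 0 of the 387 miRNAs at an adjusted p under 0.05 (0.00%) and 11 at an unadjusted p under 0.05 (2.84%). edgeR called 0 (0.00%) and 28 (7.24%), and DESeq2 1 (0.258%) and 19 (4.91%). The groups did not overlap for 20 of the 387 (5.17%), and neither arm of miR-22 was among these.

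A single library set much of the size of the miR-22-3p difference. Without HFD replicate 2 the HFD mean was 726 ± 382 rpm (SD, n = 3) and the log2 fold change -0.15 (limma adjusted p = 0.963). Without HFD replicate 4, the lowest library, it was -0.97 (limma adjusted p = 0.861). The value was -0.36 without HFD+Ni replicate 3, and between -0.77 and -0.42 in the 4 other fits with 1 library left out. All 7 of these fits placed HFD+Ni lower.

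**Figure D2:**
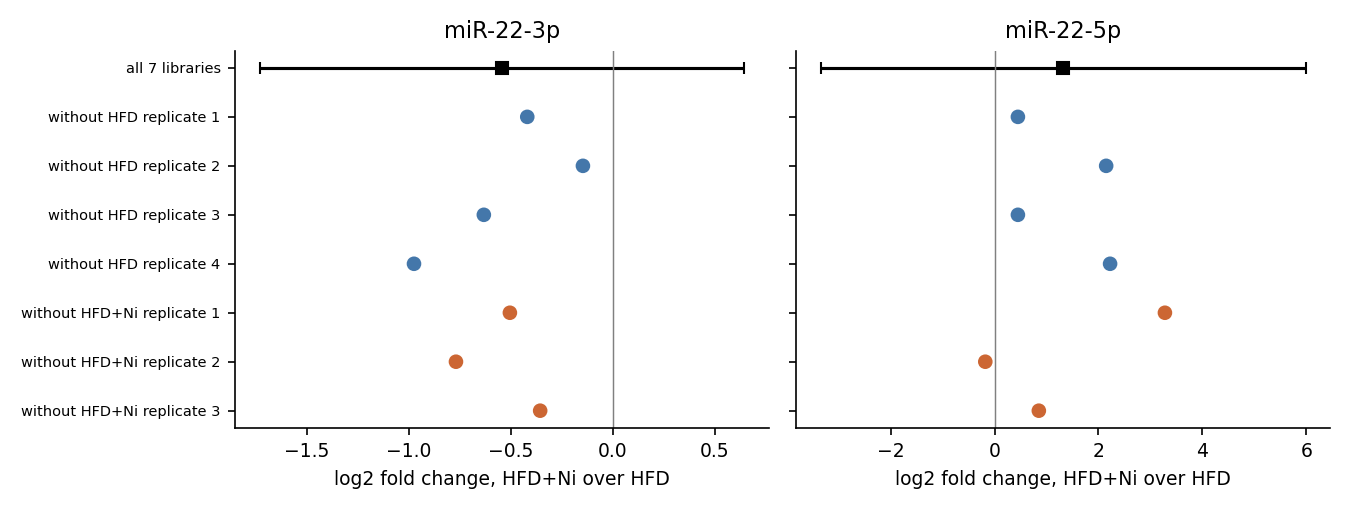
log2 fold change of miR-22-3p (left) and miR-22-5p (right), HFD+Ni over HFD on log2(rpm + 1), with all 7 libraries (square, with limma's 95% interval) and with each library left out (circles, blue for HFD and orange for HFD+Ni). The values for miR-22-3p stay between -0.97 and -0.15, and that of miR-22-5p falls to -0.18 without HFD+Ni replicate 2.

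The HFD libraries differed among themselves in miR-22-3p by more than counting error. HFD replicate 4 had an interval of 231 to 510 rpm, HFD replicate 1 one of 895 to 1369 rpm and HFD replicate 2 one of 1881 to 2051 rpm, and these do not meet. The highest HFD library was 5.60 times the lowest. The coefficient of variation over the HFD libraries, the SD as a share of the mean, was 66.9%. Among the other 36 miRNAs with a mean between 426 and 1704 rpm, 5 had a larger value, and the median with miR-22-3p included was 37.8%. Of these 37 miRNAs, 9 were highest in HFD replicate 2, as miR-22-3p was.

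**Figure D3:**
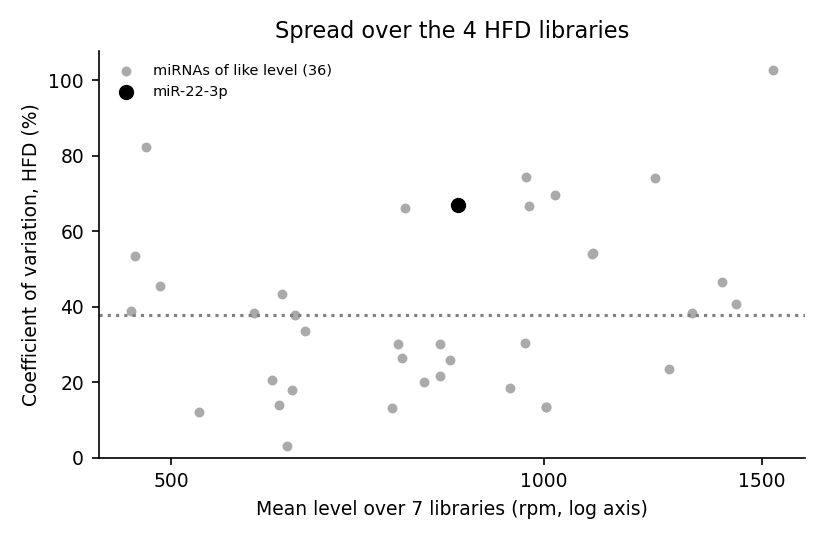
Coefficient of variation over the 4 HFD libraries, in percent, against the mean level over all 7 libraries in rpm on a log axis, for the 37 miRNAs within a factor of 2 of the level of miR-22-3p. Points are miRNAs and the dotted line is their median of 37.8%; miR-22-3p (black) lies at 66.9%.

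The next miRNAs in level were close to miR-22-3p. miR-378b (939 rpm over all libraries), the growth-linked miR-221-3p (966 rpm) and miR-328-3p (967 rpm) lay just above it, and miR-339-5p (839 rpm), miR-92a-3p of the miR-17-92 cluster (825 rpm) and miR-30a-3p (824 rpm) just below. miR-328-3p was also uneven in HFD, at 1002 ± 744 rpm (SD, n = 4), a coefficient of variation of 74.3%, and its highest library was HFD replicate 1. miR-339-5p was more even, at 823 ± 214 rpm (SD, n = 4). The distances between these 7 levels were smaller than the SD of miR-22-3p, so its place among them is not resolved.

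mmu-miR-22-5p, the minor arm, was scarce, at 31.3 rpm on average and rank 226, with 62 reads in all. It was read in 2 of the 4 HFD libraries and 2 of the 3 HFD+Ni libraries. In HFD it stood at 0, 33.2, 0 and 39.0 rpm in replicates 1 to 4, from 0, 35, 0 and 3 reads. In HFD+Ni it stood at 0, 119 and 27.9 rpm in replicates 1 to 3, from 0, 21 and 3 reads. The groups overlapped, and the 21 reads of HFD+Ni replicate 2 made the highest level. With no read, up to 3 could have been missed by chance of counting. That limit corresponds to 37.1 rpm for HFD replicate 1, 25.5 rpm for HFD replicate 3 and 55.9 rpm for HFD+Ni replicate 1, so an unread library could hold as much as HFD replicate 2 in all but HFD replicate 3.

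The mean level of miR-22-5p was 18.0 ± 20.9 rpm (SD, n = 4) on the diet alone and 49.1 ± 62.5 rpm (SD, n = 3) with nicotine. The log2 fold change was 1.32 (SE 2.14, 95% interval -3.35 to 5.98), which did not pass the threshold (limma adjusted p = 0.893, unadjusted p = 0.549). This value depends on the pseudocount of 1 rpm, since 3 libraries had no read. Its direction rested on HFD+Ni replicate 2, without which the HFD+Ni mean was 13.9 rpm and the log2 fold change -0.18 (limma adjusted p = 0.995). Without HFD replicate 1 or 3 it was 0.45, without HFD replicate 2 or 4 it was 2.15 and 2.22, and without HFD+Ni replicate 1 or 3 it was 3.28 and 0.85. In the authors' deposited table the log2 fold change of miR-22-5p is 1.42, with an FDR of 1.

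Both arms come from the same hairpin, so their ratio within a library does not depend on how libraries are scaled. miR-22-5p made up 0%, 1.66%, 0% and 10% of the miR-22 reads in HFD replicates 1 to 4, from 90, 2109, 84 and 30 reads of both arms. It made up 0%, 12.9% and 5.77% in HFD+Ni replicates 1 to 3, from 30, 163 and 52 reads. The share was high in HFD+Ni replicate 2 and HFD replicate 4 and low in HFD replicates 1, 2 and 3, so each group held libraries at 0 and libraries at or above 10%.

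The group means of this share were 2.91% ± 4.79 (SD, n = 4) on the diet alone and 6.22% ± 6.45 (SD, n = 3) with nicotine. They differed by less than the libraries did among themselves (exact two-sided permutation p = 0.514 35 splits, of which the smallest possible p is 0.0571). Without HFD+Ni replicate 2 the difference of the means was -0.030 percentage points, against 3.30 with it. Single libraries differed more clearly. The exact (Clopper-Pearson) interval was 8.16% to 19.0% in HFD+Ni replicate 2 and 1.16% to 2.30% in HFD replicate 2, the 2 libraries with the most miR-22 reads, and these intervals do not meet. HFD+Ni replicate 1, with 0 of 30 reads, had an interval of 0% to 11.6%, and HFD replicate 4 one of 2.11% to 26.5%. Both are wide and meet the intervals of all other libraries, which does not show that the shares were alike.

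**Figure D4:**
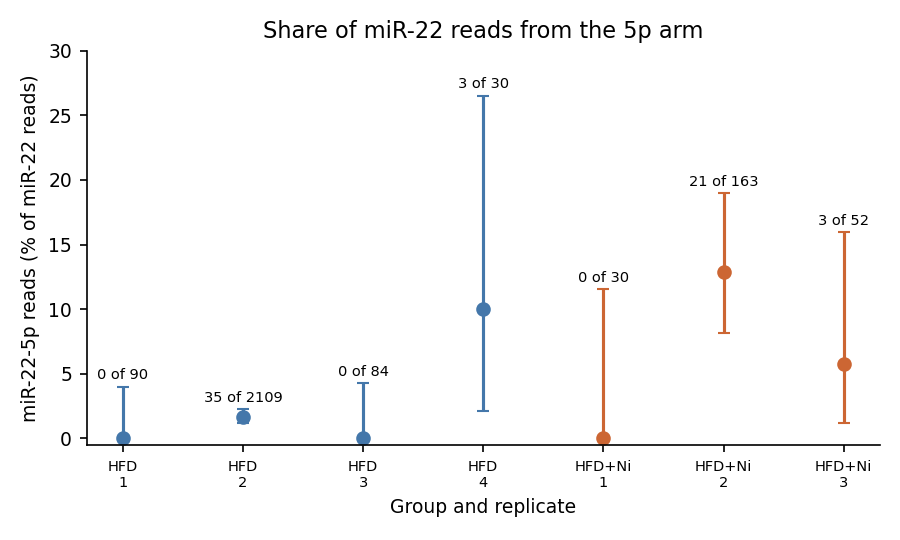
Share of miR-22 reads that came from the 5p arm, in percent, in each of the 7 libraries by group and replicate. Points are libraries, bars are exact 95% binomial intervals and the labels give miR-22-5p reads of all miR-22 reads; HFD+Ni replicate 2 stands at 12.9% and HFD replicate 2 at 1.66%.

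Set beside other hairpins, miR-22 had an ordinary imbalance of its arms. With levels averaged over the 7 libraries, its minor arm took 3.55% of the 2 arms together. Among 87 hairpins with both arms in the table and at least 100 rpm in sum, 49 had a smaller share, and the median was 1.55%. Without HFD+Ni replicate 2 the share of miR-22 was 1.90%, with 45 hairpins smaller and a median of 1.22%. The 5p arm was the minor one in 36 of the 87. miR-187, whose minor arm is also the 5p arm, stood next below at 3.08%, and miR-99b, whose minor arm is the 3p arm, next above at 3.62%.

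Both arms together gave 0.111%, 0.200%, 0.0715% and 0.0390% of the summed miRNA reads in HFD replicates 1 to 4. They gave 0.0559%, 0.0927% and 0.0483% in HFD+Ni replicates 1 to 3. HFD replicate 2 was again the highest and HFD replicate 4 the lowest. The means were 0.105% ± 0.0695 (SD, n = 4) on the diet alone and 0.0656% ± 0.0237 (SD, n = 3) with nicotine, which did not differ beyond the spread between libraries (exact two-sided permutation p = 0.400). With the let-7 family left out of the reads, the means were 0.224% and 0.150% (exact two-sided permutation p = 0.400).

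The miRNAs whose levels moved most like miR-22-3p over the 7 libraries were ranked by the root mean square distance between centred log2(rpm + 1) values, among miRNAs whose mean reached 100 rpm. The distance was 0.32 for miR-145a-5p, a smooth muscle and stromal miRNA, 0.47 for miR-24-3p, 0.48 for miR-30c-5p, 0.51 for miR-145a-3p and 0.52 for miR-103-3p, against a median of 0.89 over all miRNAs ranked. miR-103-3p holds nearly the same reads as its close relative miR-107-3p, and these cannot be assigned to 1 of the pair. The measure is a description over 7 libraries that differ in depth, and it carries no test.

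miR-145a-5p stood at 3254, 8854, 3874 and 1610 rpm in HFD replicates 1 to 4 and at 1939, 3599 and 2648 rpm in HFD+Ni replicates 1 to 3. Like miR-22-3p it was highest in HFD replicate 2, lowest in HFD replicate 4 and, within HFD+Ni, highest in replicate 2. Its log2 fold change was -0.47 (SE 0.47, limma adjusted p = 0.830). miR-24-3p had the same highest and lowest library, at 1936 and 286 rpm, but a log2 fold change of 0.10 (SE 0.55, limma adjusted p = 0.986). Both miR-24-3p and miR-145a-3p were at their highest HFD+Ni level in replicate 1 rather than in replicate 2.

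**Figure D5:**
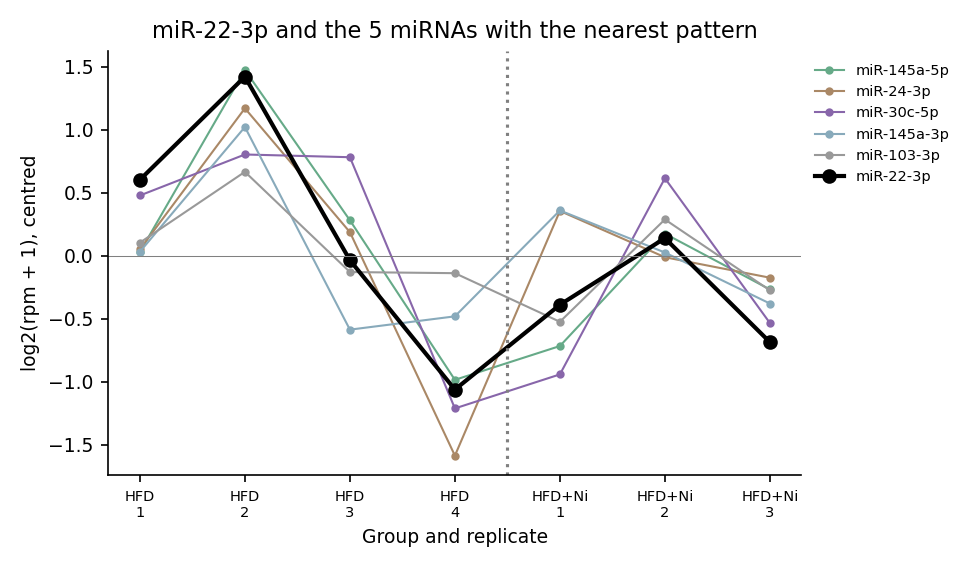
Centred log2(rpm + 1) of miR-22-3p (black) and of the 5 miRNAs nearest to it in pattern, in the 7 libraries by group and replicate; lines only join the values of 1 miRNA and the dotted line parts the groups. miR-22-3p and miR-145a-5p, at a distance of 0.32, share their highest library (HFD replicate 2) and their lowest (HFD replicate 4).

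Other miRNAs known from fat cell differentiation and lipid handling form the setting of miR-22 here. Of a list of 33 such miRNAs, all had a row in the table and 31 were tested. limma placed 22 lower and 9 higher in HFD+Ni, a share of 71.0% lower against 47.3% of all 387 miRNAs tested, with a median log2 fold change of -0.26 against 0.04. These members are not independent. miR-103-3p and miR-107-3p held nearly the same reads, as did miR-27a-3p and miR-27b-3p, and those of miR-30a-5p and miR-30d-5p were close. Both members of each pair count among the 22 lower, and such repeats also occur among the 387. The list was chosen with earlier results of these data known, so its contrast with all miRNAs tested is a description only. None of the 31 passed the corrected threshold. With both the deepest and the shallowest library left out, 13 of 30 were lower. The share lower over all miRNAs was not counted in that fit.

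At an unadjusted p under 0.05 the list held 1 lower and 1 higher member. The lower one was miR-21a-5p, which promotes fat cell formation and is induced in inflammation, with HFD values of 8464 to 17527 rpm and HFD+Ni values of 6918 to 8789 rpm (log2 fold change -0.59, SE 0.26, limma adjusted p = 0.830). The higher one was miR-204-5p, with HFD values of 161 to 400 rpm and HFD+Ni values of 362 to 2350 rpm (1.68, SE 0.63, limma adjusted p = 0.830). For both the groups overlapped.

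The other abundant members of the list stood at more than 10 times the level of miR-22-3p. miR-143-3p, which promotes fat cell differentiation, was at 29926 ± 16309 rpm (SD, n = 4) on the diet alone and 18361 ± 10105 rpm (SD, n = 3) with nicotine, a log2 fold change of -0.67 (SE 0.42). miR-30a-5p and miR-30d-5p, of a family that favours fat cell formation, had log2 fold changes of -0.14 (SE 0.19) and -0.15 (SE 0.19). Their reads were close in every library, so these are not independent results. miR-26a-5p and miR-26b-5p, linked to fat cell differentiation and browning, had -0.21 (SE 0.23) and -0.26 (SE 0.27). None of these 5 passed the threshold, the lowest limma adjusted p being 0.830.

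The miRNAs of other cell types that such vesicles could carry varied between libraries as well, and the lists hold no miRNA specific to fat cells against which the labelled tissue could be checked. The striated muscle list, a tissue rich in miR-22, had a row for 5 of its 7 members, and its summed level was 866 to 4301 rpm in HFD and 762 to 1156 rpm in HFD+Ni. Within it miR-206-3p was read in HFD replicates 2 and 4 alone and miR-499-5p by 1 read in HFD replicate 2 alone. All 4 tested members were lower in HFD+Ni, against 47.3% of all 387 miRNAs tested, and none passed the corrected threshold. miR-1a-3p had 18, 1228, 30 and 54 reads in HFD replicates 1 to 4 and 2, 13 and 5 in HFD+Ni replicates 1 to 3. Its log2 fold change was -3.18 (SE 0.71), with the lowest limma adjusted p of all miRNAs tested (0.320). The summed striated muscle level was high in HFD replicate 2 (4301 rpm) and in HFD replicate 4 (4025 rpm), the libraries with the highest and the lowest miR-22-3p. Its part in the miR-22 values was not tested. The 7 leukocyte miRNAs summed to 6810 to 8868 rpm in HFD and 3916 to 6206 rpm in HFD+Ni, and the 2 endothelial miRNAs to 20518 to 32381 and 12979 to 18852 rpm. Neither list's groups overlapped, both had their highest sum in HFD replicate 4, and their part in the miR-22 values was not tested.

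The 7 epithelial miRNAs summed to 5333 to 14311 rpm in HFD and 6771 to 46153 rpm in HFD+Ni, the highest being HFD+Ni replicate 1. The 8 testis and germ cell miRNAs summed to 599 to 1077 rpm in HFD and 1200 to 2332 rpm in HFD+Ni. These groups did not overlap. Most of each sum came from miR-34b-5p, miR-34c-5p and miR-449a-5p. miR-34c-5p alone stood at 431 to 780 rpm in HFD and 813 to 1106 rpm in HFD+Ni. The other members were miR-465a-5p, miR-470-5p, miR-741-3p, miR-743a-3p and miR-871-3p. All of these were unread in HFD replicates 1 and 4 and in HFD+Ni replicate 2, and miR-465a-5p was unread throughout HFD. The separation of the sums was therefore not seen in these members, as HFD+Ni replicate 2 had no read of them. The other HFD+Ni libraries did have reads, 16 of miR-741-3p in replicate 1, and 10 of miR-741-3p and 29 of miR-470-5p in replicate 3. HFD replicate 2, the deepest library, had 13 of miR-741-3p and 1 of miR-470-5p. The erythroid list had a row for 2 of 3 members, summed to at most 149 rpm, and its miR-144-3p was read in HFD replicate 2 alone, by 8 reads. The member without a row was miR-486a-5p. A row for miR-486b-5p, which is not on the list, averaged 477 rpm over the libraries. It had 1224 reads in HFD replicate 2 and 0 in HFD+Ni replicate 1, so the low sum does not show that erythroid miRNAs were scarce. In bulk vesicle RNA, fewer vesicles from a cell type and less miRNA per vesicle cannot be told apart.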

How the data were processed

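The deposited table gives, per library, the authors' values for 820 miRNAs under the name TPM. They are rpm: each deposited rpm column sums to 1000000, and whole reads were recovered for 100% of values within 0.1 read. Per the submitters' processing notes the build was GRCm38 (mm10) and edgeR was used, and the sources used here do not give the aligner, the counter or the annotation. The authors' deposited p-value, FDR and log2 fold change were copied for the 2 arms. In the authors' second list, 1 column of per-sample values has a name that fits no label, and it was left out.

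The comparison of HFD+Ni with HFD used log2(rpm + 1) in limma 3.58.1, run in R 4.3.3 with a mean-variance trend, over the 387 miRNAs whose mean reached 5 rpm, two-sided, with Benjamini-Hochberg adjustment at 0.05. edgeR 4.0.16 and DESeq2 1.42.0 were run on recovered reads. Shares were compared by exact permutation. The fits were checked on simulated data. The hairpin was folded with ViennaRNA 2.7.2.

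Named miRNAs were both arms, 3 neighbours in level on each side, the 5 nearest patterns, the 6 most abundant list members with those at unadjusted p under 0.05, and 1 neighbour on each side in arm share. miR-107-3p, miR-27a-3p, miR-27b-3p, miR-486a-5p, miR-486b-5p, miR-3966 and single marker miRNAs were named outside this rule. Members and lists were chosen with earlier results of these data known. Alternatives were the pseudocount, filter, scaling, tool, library weights, replicate block and each library left out.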

Additional observations from a re-analysis of the deposited data

Results flagged for a closer look

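The share of miR-22 reads from the 5p arm in HFD replicate 4, 10%, stood far from the other 3 HFD libraries (0%, 1.66% and 0%), with a gap to its nearest neighbour of 0.834 of the group's range. It rests on 3 of 30 reads. Of 29 values and sums checked in this way 1 stood out, and chance flags about 1 group in 20.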

How the results depend on the processing

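The lower level of miR-22-3p in HFD+Ni kept its direction and stayed outside the threshold under all 17 alternatives, with log2 fold changes from -0.97 to -0.11 and limma, edgeR or DESeq2 adjusted p from 0.699 to 0.963; the weakest value came without both HFD replicate 2 and HFD+Ni replicate 1, an alternative chosen after seeing the data. For miR-22-5p the range was -0.18 to 4.11 over 16 alternatives (adjusted p 0.699 to 0.995), and it could not be fitted at a filter of 50 rpm. With each library left out it ran from -0.18 to 3.28, the negative value coming without HFD+Ni replicate 2. The difference in the 5p share ran from -0.0303 to 6.41 percentage points in those fits, again negative without that library, and that of the summed miR-22 share from -0.0619 to -0.00830. DESeq2 called 1 miRNA and the other 16 alternatives 0. The lipid list held 17 to 23 lower members with 1 library left out, and 13 without the deepest and the shallowest together, where the cause was not tested. The share of all tested miRNAs that were lower was not counted in these fits. These counts therefore do not show a change particular to the list. The minor arm share from mean levels ran from 1.90% to 4.45% with 1 library left out, a check chosen after seeing the data.

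Whether replicate numbers pair the libraries was not settled. Correlations of same-numbered deviations were 0.02, 0.19 and -0.10, and those of differently numbered libraries ran from -0.15 to 0.11. With so few libraries these values cannot show pairing or its absence. With a replicate block over replicates 1 to 3 the log2 fold change was -0.97 for miR-22-3p (limma adjusted p = 0.849, unadjusted p = 0.0461). For miR-22-5p it was 2.22 (limma adjusted p = 0.849, unadjusted p = 0.220). This block leaves out HFD replicate 4, and both values equal those of the fit without that library. With the block 0 miRNAs were called and 23 list members were lower, where the share lower over all miRNAs was not counted. The differences were -0.0619 and 5.66 percentage points for the summed and the 5p share (exact sign-flip p = 0.25 and 0.5). With 3 pairs the smallest possible p of this test is 0.25, so it could not pass the threshold. Depth limits miR-22-5p most, with at most 3 reads in 5 of the 7 libraries.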
